A study of Mus musculus with 14 samples.

Results

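The 10 genes for secreted neuronal signals followed here in hippocampal RNA were the neurotrophin gene Bdnf, the granin-type precursors Vgf and Scg2, and the neuropeptide precursors Npy, Penk, Pdyn, Tac1, Tac2, Crh and Adcyap1. They were chosen by name, with earlier results of these data known, and all 10 are among the 24421 genes of the counts table and among the 14897 genes that could be tested. RNA came from 7 naive male mice labelled LPAR2-/- and 7 naive male WT mice, all listed as strain 129.C57Bl6 and as 10 to 12 weeks old, whereas the design text describes middle-aged or aged animals. LPAR2 is a receptor for lysophosphatidic acid, and the knockout allele carries a deletion within exon 2. The genotypes came from separate colonies, 1 of homozygous knockouts and 1 of controls with C57BL/6 and 129/SvJ ancestry, so that colony and genotype cannot be told apart. The labels give the tissue as hippocampus, while the study names the dentate gyrus for its RNA sequencing in some places, so that the dissected region is uncertain. The question for these 10 genes was whether their mRNA differed between the genotypes.

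Neuropeptides and neurotrophins are made as larger precursors, are cut by prohormone convertases such as Pcsk1 and Pcsk2, and are stored in dense-core vesicles with granins. They are released mainly when neurons fire strongly and act on receptors of neighbouring cells. In the hippocampus several of them mark particular cells: Pdyn and Penk are known from granule cells of the dentate gyrus and their mossy fibre axons, Npy and Crh from interneurons, and Bdnf, Vgf and Scg2 from excitatory neurons, where neuronal activity can raise their transcription.

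The counts of a mouse summed to between 15434620 and 23258949 over all genes. Lpar2, the targeted gene, had 8.20 to 12.3 CPM (counts scaled to a common library total) in the libraries labelled LPAR2-/-. The WT libraries had less, 1.51 to 3.23 CPM. Lpar2 was thus higher by 2.01 on the log2 scale (SE 0.16, edgeR quasi-likelihood test, adjusted p = 8.2e-07). Reads from the part of the gene outside the deletion are counted too, and their part in this difference was not tested. The direction of every difference below therefore rests on the labels. Marker genes of 11 brain regions and cell types were summed as a check of the tissue. The 7 dentate gyrus markers summed to between 797 and 1271 CPM over all mice, and the 6 neuronal markers to between 4916 and 6548 CPM. The list of 8 cortex markers was higher in the mice labelled LPAR2-/- (181 to 210 CPM summed, against 155 to 198 CPM in WT; difference of the mean log2 CPM 0.28, exact two-sided permutation p = 0.0029, adjusted p = 0.032 over 11 lists), with 7 of its 8 genes above WT and none of the 8 past the threshold alone. The part of this difference in the results below was not tested. One WT mouse, mouse 2, had 333 CPM of the 5 CA1 markers, while the median of the WT mice was 113 CPM. The mice labelled LPAR2-/- had at most 170 CPM.

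None of the 10 genes passed the test between genotypes (edgeR quasi-likelihood test, Benjamini-Hochberg adjusted p under 0.05 over all genes). Over all genes tested, 6.77% passed, of which 3.32% of the genes were above and 3.46% were below WT. This split, 494 above and 515 below, was 616 above and 377 below under upper-quartile scaling. DESeq2 and limma-voom also called 0 of the 10. At an unadjusted p under 0.05 there were 2 of 10, Crh and Vgf, against 22.4% of all genes. None of the 10 had groups that did not overlap, against 1.77% of all genes. The fold change was above 0 for 3 genes and below 0 for 7, with a median of -0.07 on the log2 scale, and the median over all genes was 0.00. The 95% intervals show what sizes remain possible: for Scg2 the interval ran from -0.18 to 0.11, whereas for Adcyap1 it ran from -0.64 to 0.50.

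**Figure D1:**
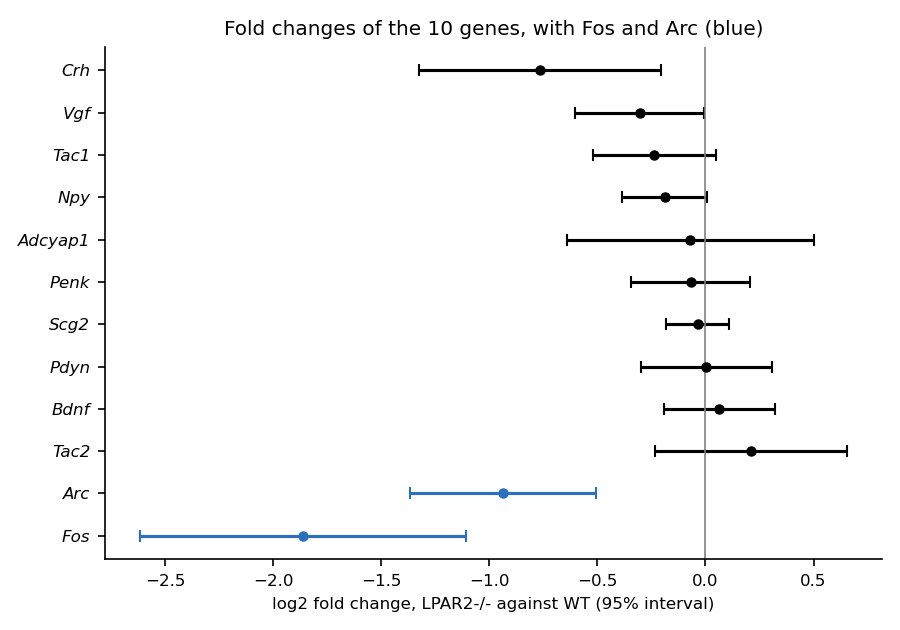
Log2 fold changes of the 10 genes (black) and of the activity genes Fos and Arc (blue), mice labelled LPAR2-/- against WT, with 95% intervals from the edgeR fit over 7 mice per genotype. The interval of Crh, from -1.33 to -0.20, lies farthest below 0 among the 10 genes, and the intervals of Fos and Arc lie below -0.50.

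Levels of different genes were compared as CPM per kilobase of exon. Scg2 was the most abundant with 141.5 ± 10.3 (SD, n = 7 WT mice), followed by Npy with 60.6 ± 8.43 and Vgf with 32.97 ± 5.23. Pdyn (19.2 ± 2.93), Penk (18.4 ± 3.45) and Bdnf (11.5 ± 2.20) formed the middle of the order. Tac1 (7.34 ± 1.05) and Adcyap1 (5.19 ± 2.50) came next, and Tac2 (1.04 ± 0.26) and Crh (0.83 ± 0.28) were the lowest. The WT ranges of neighbours in this order were apart between Scg2 and Npy, Npy and Vgf, Vgf and Pdyn, and Adcyap1 and Tac2, and overlapped for the other neighbours. The order of the means was the same in the mice labelled LPAR2-/-. These are levels in bulk tissue, in which fewer cells of a type and less RNA per cell cannot be told apart.

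**Figure D2:**
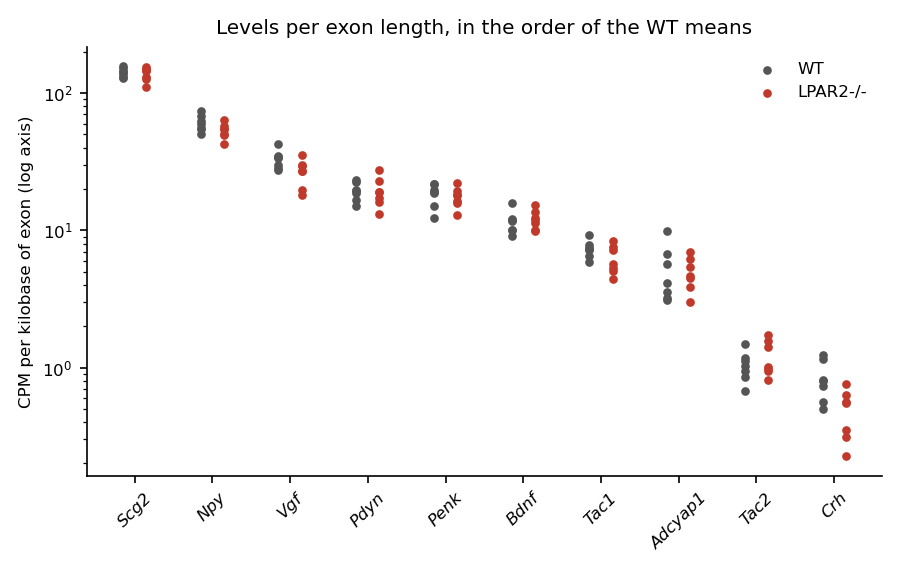
Level of each gene per mouse as CPM per kilobase of exon on a log axis, WT in grey and mice labelled LPAR2-/- in red, ordered by the WT mean. The levels run from 156 for Scg2 in 1 WT mouse down to 0.23 for Crh in 1 mouse labelled LPAR2-/-, and the genotypes overlap for every gene.

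Bdnf, whose product binds the receptor TrkB and supports synaptic plasticity, lies on chromosome 2 at 109674700 to 109727043 (mm10, plus strand). Its counted exons span 6714 bases, of which 12.96% are coding. WT mice had 60.8 to 106 CPM with a median of 78.8 CPM, and mice labelled LPAR2-/- had 66.8 to 103 CPM with a median of 79.2 CPM. Both the highest and the lowest mouse were WT. The difference was 0.06 on the log2 scale (SE 0.12, 95% interval -0.19 to 0.32, edgeR adjusted p = 0.80). An annotated antisense gene, Gm45346, overlaps Bdnf on the other strand, and the authors counted reads of 1 strand only.

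Vgf encodes a secreted precursor that neurotrophins and neuronal activity induce. It lies on chromosome 5 at 137030295 to 137033351 (plus strand). WT mice had 69.7 to 109 CPM (median 85.9 CPM) and mice labelled LPAR2-/- had 46.5 to 90.3 CPM (median 69.5 CPM). Of the mice labelled LPAR2-/-, 4 lay below every WT mouse, and mice 6 and 7 were the lowest with 46.5 and 50.05 CPM. The difference of -0.30 (SE 0.14, 95% interval -0.60 to -0.01) had an unadjusted p of 0.046 and did not pass after adjustment (edgeR adjusted p = 0.21). An exact two-sided permutation test of the log2 CPM over all 3432 arrangements of the mice gave p = 0.059. Over the alternatives the adjusted p ranged from 0.092 to 0.31.

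Scg2 encodes secretogranin II, a granin of dense-core vesicles and the precursor of secretoneurin. It lies on chromosome 1 at 79434669 to 79440090 (minus strand). WT mice had 318 to 388 CPM (median 353 CPM), and mice labelled LPAR2-/- had 276 to 384 CPM (median 361 CPM). The medians and the means were ordered in opposite ways, since 2 mice labelled LPAR2-/- were the lowest of all. The difference was -0.04 (SE 0.07, edgeR adjusted p = 0.80), the most precise of the 10.

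Npy, the precursor of neuropeptide Y, an inhibitory peptide of interneurons, lies on chromosome 6 at 49822729 to 49829505 (plus strand). WT mice had 27.2 to 40.6 CPM (median 32.2 CPM) and mice labelled LPAR2-/- had 23.1 to 34.5 CPM (median 29.6 CPM). Of the latter, 6 of 7 lay below the WT median and 2 below every WT mouse. The difference was -0.19 (SE 0.09, 95% interval -0.38 to 0.01, edgeR adjusted p = 0.24; exact permutation p = 0.086).

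Penk and Pdyn encode the opioid precursors. Penk, the source of enkephalins, which act on delta and mu opioid receptors, lies on chromosome 4 at 4133536 to 4138445 (minus strand), with the annotated transcript A830012C17Rik on the other strand. It was measured at 17.5 to 30.8 CPM in WT (median 27.1 CPM) and at 18.1 to 31.3 CPM in mice labelled LPAR2-/- (median 25.4 CPM). These ranges nearly coincided, with a difference of -0.07 (SE 0.13, edgeR adjusted p = 0.80).

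Pdyn, the source of dynorphins, which act on the kappa opioid receptor, lies on chromosome 2 at 129686549 to 129699938 (minus strand). WT mice had 38.1 to 59.2 CPM (median 49.0 CPM). The range of the mice labelled LPAR2-/- was wider at both ends, 33.4 to 69.8 CPM around a median of 48.7 CPM. The difference was 0.00 (SE 0.14, 95% interval -0.30 to 0.31, edgeR adjusted p = 0.99).

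Tac1 and Tac2 encode the tachykinins. Tac1, the precursor of substance P and neurokinin A, lies on chromosome 6 at 7555071 to 7562973 (plus strand). It was measured at 6.08 to 9.53 CPM in WT (median 7.62 CPM) and at 4.60 to 8.63 CPM in mice labelled LPAR2-/- (median 5.89 CPM). Of the latter, 4 lay below every WT mouse. The difference was -0.24 (SE 0.14, 95% interval -0.52 to 0.05, edgeR adjusted p = 0.32).

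Tac2, the precursor of neurokinin B, lies on chromosome 10 at 127724478 to 127731768 (plus strand) and rested on 12 to 29 reads per mouse. It was measured at 0.60 to 1.32 CPM in WT (median 0.91 CPM) and at 0.72 to 1.53 CPM in mice labelled LPAR2-/- (median 0.90 CPM). The difference was 0.21 (SE 0.21, 95% interval -0.23 to 0.65, edgeR adjusted p = 0.60). In the medial habenula, which lies next to the hippocampus, Tac2 and Tac1 are abundant. The 8 habenular markers summed to 26.3 to 47.4 CPM in mice labelled LPAR2-/- and 33.2 to 40.7 CPM in WT. Nwd2 made up most of this sum, with 25.5 to 45.5 CPM over all mice, while 5 of the 8 had under 10 reads in every mouse, among them Chrnb3, Chrna6 and Pou4f1 with at most 4, 1 and 2 reads. Their part in the levels of Tac1 and Tac2 was not tested.

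Crh encodes corticotropin-releasing hormone, the peptide that starts the stress response and that hippocampal interneurons also make. It lies on chromosome 3 at 19693401 to 19695396 (minus strand). WT mice had 0.66 to 1.64 CPM (median 1.05 CPM) and mice labelled LPAR2-/- had 0.30 to 1.00 CPM (median 0.73 CPM). All 7 of the latter lay below the WT median, 3 lay below every WT mouse, and 4 WT mice lay above all of them. This was the fold change farthest from 0 among the 10 genes, -0.77 (SE 0.27, 95% interval -1.33 to -0.20). It had an unadjusted p of 0.010 and an edgeR adjusted p of 0.097, and the exact permutation test gave p = 0.022. The adjusted p ranged from 0.0504 (without WT mouse 1) to 0.21 (without WT mouse 2) over the alternatives, none of which called the gene. Crh rested on 5 to 36 reads per mouse, for which counting alone gives a coefficient of variation (CV) of 24.3%.

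Adcyap1 encodes PACAP, a peptide that raises cAMP in its target cells. It lies on chromosome 17 at 93199422 to 93205489 (plus strand). WT mice had 6.46 to 20.8 CPM (median 8.63 CPM) and mice labelled LPAR2-/- had 6.27 to 14.6 CPM (median 9.73 CPM). The ranges overlapped, and the highest mouse was WT. The difference was -0.07 (SE 0.27, edgeR adjusted p = 0.91). Adcyap1 varied the most between WT mice, with a CV of 48.1%, while counting alone gives 6.92%. The median CV over all genes tested was 8.74% in WT and 9.54% in mice labelled LPAR2-/-.

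**Figure D3:**
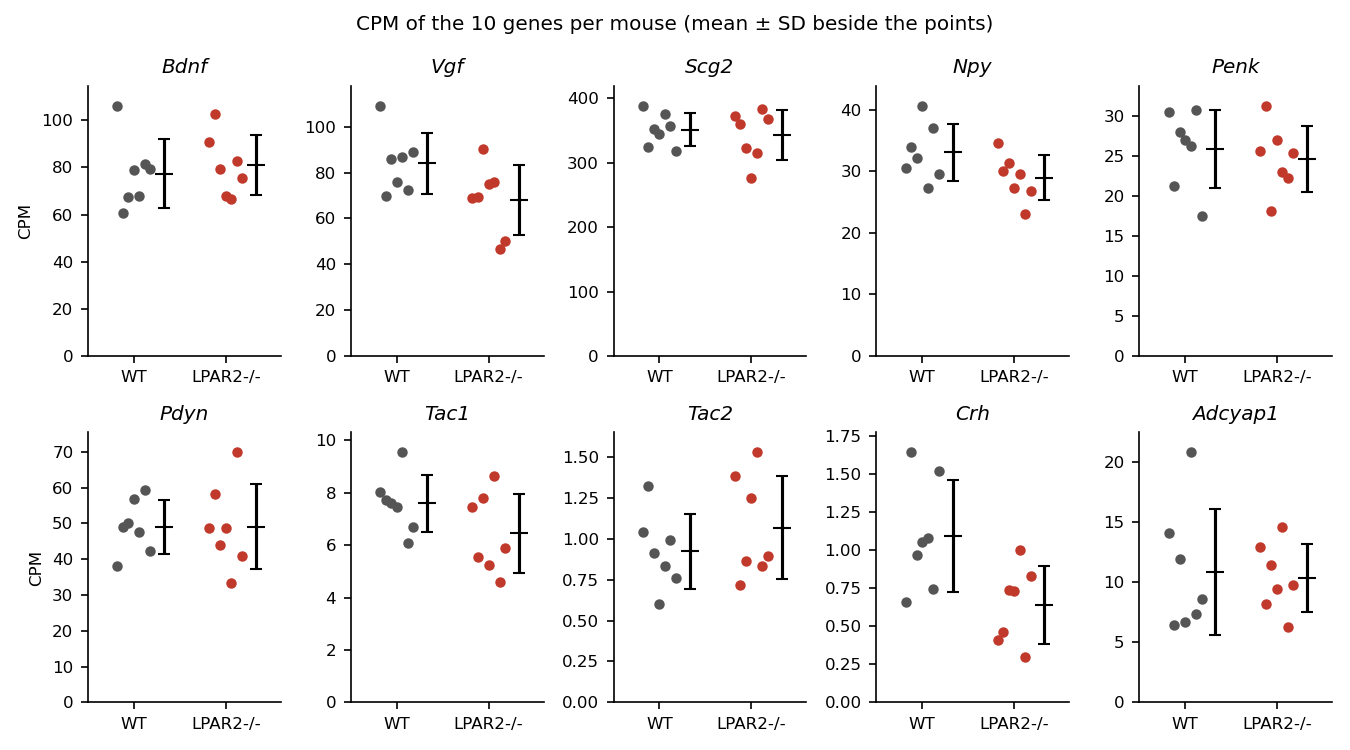
CPM of each of the 10 genes in the 7 WT mice (grey) and the 7 mice labelled LPAR2-/- (red), 1 point per mouse, with the mean ± SD beside the points. The ranges overlap for every gene; for Crh all 7 red points lie below the WT median of 1.05 CPM.

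Promoter windows of RefSeq (GRCm38.p6, mm10; 250 bases before to 50 after each start) matched 7 of the 10 genes with 15 windows, 7 for Bdnf, 2 each for Pdyn and Adcyap1 and 1 each for Scg2, Npy, Tac1 and Tac2. Vgf, Penk and Crh were not searched. They were searched on both strands for the cAMP response element TGACGTCA, its core TGACG, which the full element contains, the AP-1 site TGANTCA and the Egr site GCGGGGGCG. These sites are those bound by factors of the activity response. Scg2 alone of the 7 had the full element, which 2.03% of all 27025 genes with a window have. The core was found in 4 of 7, Bdnf, Scg2, Tac1 and Adcyap1, against 23.05% of all genes. By window it was in 5 of 15 (33.3%), against 20.8% of all windows, and the windows of Adcyap1 overlap and share 1 match. The AP-1 letters were in 1 window of Bdnf (8.97% of all genes have them), and the Egr letters in none of the 7 (3.31% of all genes). The sequences that hold the full element or its core upstream of a RefSeq start are shown 5′ to 3′ on the strand of the gene, with the matched letters in capitals.
Scg2, chr1:79440076-79440105, minus strand: ggctgagccggTGACGTCAgcgtggaatgc
Bdnf, chr2:109692186-109692435, plus strand: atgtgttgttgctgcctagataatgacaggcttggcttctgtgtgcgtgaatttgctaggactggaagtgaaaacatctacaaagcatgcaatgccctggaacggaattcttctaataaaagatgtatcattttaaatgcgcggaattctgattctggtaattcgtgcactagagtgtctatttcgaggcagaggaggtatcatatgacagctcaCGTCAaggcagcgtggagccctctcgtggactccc
Tac1, chr6:7554811-7555060, plus strand: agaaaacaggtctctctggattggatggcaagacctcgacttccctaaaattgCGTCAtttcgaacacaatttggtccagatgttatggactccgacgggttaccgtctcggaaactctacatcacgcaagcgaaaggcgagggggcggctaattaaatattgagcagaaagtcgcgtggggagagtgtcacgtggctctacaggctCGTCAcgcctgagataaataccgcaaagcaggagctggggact
Adcyap1, chr17:93198767-93199016, plus strand: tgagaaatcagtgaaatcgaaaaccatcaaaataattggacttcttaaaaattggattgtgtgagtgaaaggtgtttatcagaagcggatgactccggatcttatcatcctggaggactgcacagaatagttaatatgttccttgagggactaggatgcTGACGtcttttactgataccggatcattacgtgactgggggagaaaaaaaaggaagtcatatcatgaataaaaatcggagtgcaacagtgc

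The element of Scg2 lies 68 to 61 bases before the RefSeq start, at 79440087 to 79440094, and so straddles the start of the counted gene model at 79440090. Of the 30 bases shown for Scg2, 15 lie in its counted exon. The core lies 35 to 31 bases before 1 of the 7 RefSeq starts of Bdnf. The match of Adcyap1 lies 91 to 87 bases before its first RefSeq start and 242 to 238 bases before its second, and the counted gene model starts further downstream. Tac1 has the core at 197 to 193 and again at 43 to 39 bases before its start. None of these 4 genes passed the test between genotypes, with fold changes of -0.04 for Scg2, 0.06 for Bdnf, -0.24 for Tac1 and -0.07 for Adcyap1 on the log2 scale. In a list of 30 activity genes, 18 of the 23 with a window held the core.

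Part of the activity genes themselves, which neurons transcribe within minutes to hours of firing, differed between the genotypes. Of 30 tested, 14 were called below WT and none above it, against 3.46% of all genes called below, and 16 did not pass. The median was -0.45 on the log2 scale, and the count was 10 to 16 over the alternatives. The 6 largest differences were those of Egr2 (-2.50), Fos (-1.86), Fosb (-1.46), Npas4 (-1.19), Dusp5 (-1.07) and Arc (-0.94), with edgeR adjusted p from 0.00070 to 0.015. In the fit with mouse number as a replicate block, Arc had -0.93 and did not pass (adjusted p = 0.067). Fos was between 5.13 and 22.6 CPM in WT and between 1.95 and 5.12 CPM in the mice labelled LPAR2-/-. Within a genotype, the mean log2 CPM of these genes was correlated with each of the 10 secreted signals over 7 mice, 20 relations in all, and none passed after adjustment. The smallest exact permutation p was that of Vgf in the mice labelled LPAR2-/- (Pearson r = 0.90, exact p = 0.0034, adjusted p = 0.067, Spearman rho = 0.86, exact p = 0.024, adjusted p = 0.48). Without the 2 mice farthest from the median score, which also narrows the range of the score, r was 0.50 (exact p = 0.34), so that the relation is not shown without them. In WT mice r for Vgf was -0.49 (exact p = 0.26, adjusted p = 0.62, with rho = -0.61, exact p = 0.17, adjusted p = 0.57).

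**Figure D4:**
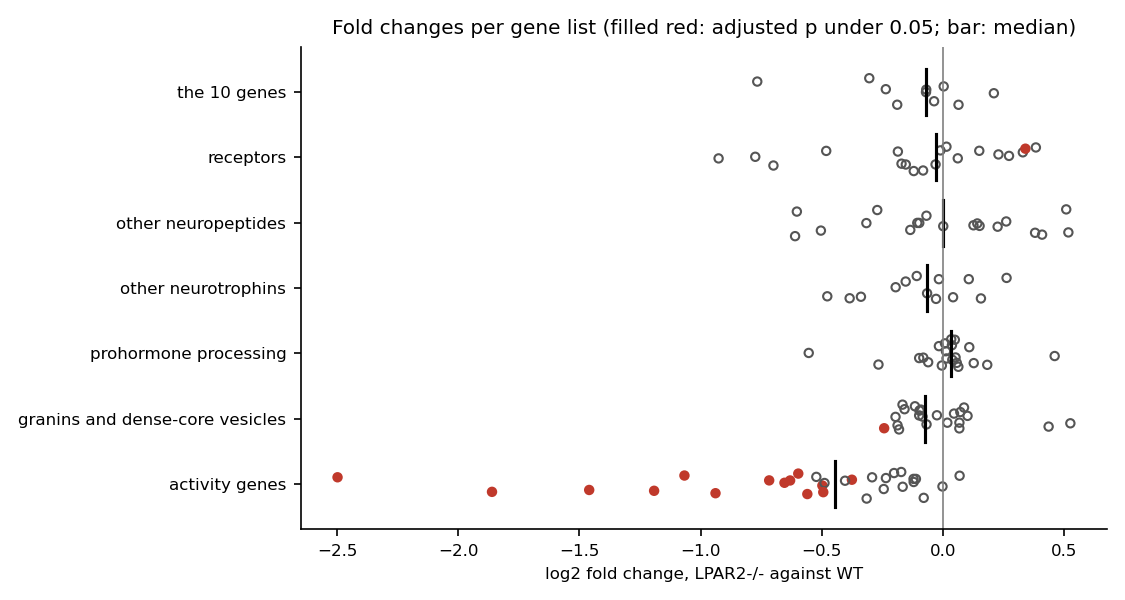
Log2 fold changes of the genes tested in each list, mice labelled LPAR2-/- against WT, with genes past the edgeR threshold as filled red points and the list median as a bar. The 14 filled points of the activity genes all lie below 0, and the 10 genes hold no filled point.

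The genes that receive, process and store these signals were read in the same fit, in which 6.77% of all genes were called and 22.4% had an unadjusted p under 0.05. Of 19 tested receptors and binding proteins, 1 passed: Npy2r, the Y2 receptor of neuropeptide Y, rose by 0.34 (SE 0.09, edgeR adjusted p = 0.041). It was measured at 111 to 136 CPM in mice labelled LPAR2-/- and at 74.9 to 120 CPM in WT. The call was lost without the filter on low counts and in 10 of 14 fits that left out 1 mouse, with adjusted p up to 0.085. The other receptors did not pass, with a median of -0.03 over the 19. Ntrk2, the TrkB gene, had -0.03 (SE 0.06, adjusted p = 0.82) and Adcyap1r1, a PACAP receptor gene, had -0.15 (SE 0.08, adjusted p = 0.26). Crhbp, which binds and holds back Crh, had -0.70 (SE 0.32, adjusted p = 0.21).

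Of 22 tested granin and dense-core vesicle genes, Chga, for chromogranin A, was the only one to pass in edgeR with all 14 mice. It fell by 0.24 on the log2 scale (SE 0.06, adjusted p = 0.022), from 108 to 134 CPM in WT to 90.4 to 114 CPM in the mice labelled LPAR2-/-. The ranges overlapped, and the call held in every alternative. The count for this list was 3 without mouse 3 labelled LPAR2-/- and 2 without WT mouse 5. None of 21 prohormone processing genes passed in edgeR (4 at an unadjusted p under 0.05, and 0 in DESeq2 and limma-voom), and 1 passed without mouse 3 labelled LPAR2-/-. The largest differences were those of the convertases Pcsk1 (-0.55, SE 0.25, adjusted p = 0.21) and Pcsk4 (0.46, SE 0.22, adjusted p = 0.23). Of 19 other neuropeptide genes none passed in edgeR (8 at an unadjusted p under 0.05; 2 passed in DESeq2 and 0 in limma-voom). In 8 of 14 edgeR fits that left out 1 mouse, between 1 and 4 of them passed, 4 without WT mouse 1, and 1 passed without the filter on low counts. With all 14 mice the largest differences were those of Adm (-0.61, adjusted p = 0.26) and Cartpt (-0.60, adjusted p = 0.12). Of 13 other neurotrophic factor and receptor genes none passed in edgeR (2 at an unadjusted p under 0.05; 1 passed in DESeq2 and 0 in limma-voom). In edgeR 2 passed without WT mouse 1, 1 without WT mouse 7 and 1 without mouse 3 labelled LPAR2-/-. With all 14 mice the largest differences were those of Manf (-0.48, adjusted p = 0.072) and Ret (-0.39, adjusted p = 0.39).

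The levels of the 10 genes were also compared with the marker levels of hippocampal fields and cells and of striatum. The lists were dentate gyrus, mossy cells, interneurons, CA1, CA3 and striatum. This was done after marker and member values had been seen, with 6 of the 11 marker lists, so that 120 relations within genotypes were computed. Of these, 23 had an exact p under 0.05, spread over 6 of the 10 genes, and the 9 with an exact p under 0.01 are given, with the other genotype beside each. One passed after adjustment: in WT mice Pdyn rose with the mean log2 CPM of 7 dentate gyrus markers (r = 0.97, exact permutation p = 0.00040, adjusted p = 0.048, n = 7, with rho = 0.96, exact p = 0.0028, adjusted p = 0.17; r = 0.90 without the 2 mice farthest from the median). In the mice labelled LPAR2-/- r was 0.56 (exact p = 0.19, adjusted p = 0.41, with rho = 0.57, exact p = 0.20, adjusted p = 0.47). For Vgf and the dentate gyrus markers the coefficients were negative, with r = -0.89 in WT (exact p = 0.0093, adjusted p = 0.12, with rho = -0.89, exact p = 0.012, adjusted p = 0.25; -0.66 without 2 mice) and r = -0.94 in mice labelled LPAR2-/- (exact p = 0.0020, adjusted p = 0.079, with rho = -0.89, exact p = 0.012, adjusted p = 0.25; -0.88 without 2 mice). With interneuron markers Vgf had r = 0.90 in mice labelled LPAR2-/- (exact p = 0.00099, adjusted p = 0.060, with rho = 0.96, exact p = 0.0028, adjusted p = 0.17, and r = 0.69 without 2 mice) and 0.47 in WT (exact p = 0.29, adjusted p = 0.49, with rho = 0.14, exact p = 0.78, adjusted p = 0.86, and r = -0.04 without 2 mice). With mossy cell markers it had r = 0.90 in WT (exact p = 0.0071, adjusted p = 0.12, with rho = 0.75, exact p = 0.066, adjusted p = 0.31, and r = 0.92 without 2 mice) and 0.74 in mice labelled LPAR2-/- (exact p = 0.065, adjusted p = 0.26, with rho = 0.64, exact p = 0.14, adjusted p = 0.43). Scg2 and the CA1 markers had r = -0.88 in mice labelled LPAR2-/- (exact p = 0.0042, adjusted p = 0.10, with rho = -0.93, exact p = 0.0067, adjusted p = 0.25, and r = -0.80 without 2 mice) and -0.67 in WT (exact p = 0.088, adjusted p = 0.27, with rho = -0.68, exact p = 0.11, adjusted p = 0.36). Npy and the mossy cell markers had r = 0.91 in mice labelled LPAR2-/- (exact p = 0.0042, adjusted p = 0.10, with rho = 0.89, exact p = 0.012, adjusted p = 0.25, and r = 0.77 without 2 mice) but -0.78 in WT (exact p = 0.041, adjusted p = 0.23, with rho = -0.68, exact p = 0.11, adjusted p = 0.36, and r = -0.75 without 2 mice). Tac1 and the mossy cell markers had r = 0.91 in mice labelled LPAR2-/- (exact p = 0.0075, adjusted p = 0.12, with rho = 0.86, exact p = 0.024, adjusted p = 0.29, and r = 0.81 without 2 mice) and 0.46 in WT (exact p = 0.32, adjusted p = 0.51, with rho = 0.46, exact p = 0.30, adjusted p = 0.50). Adcyap1 and the interneuron markers had r = 0.88 in mice labelled LPAR2-/- (exact p = 0.0091, adjusted p = 0.12, with rho = 0.68, exact p = 0.11, adjusted p = 0.36, and r = 0.77 without 2 mice) and 0.43 in WT (exact p = 0.35, adjusted p = 0.52, with rho = 0.18, exact p = 0.71, adjusted p = 0.80). Without the 2 mice, r in mice labelled LPAR2-/- was 0.33 for Pdyn with dentate gyrus markers and 0.92 for Vgf with mossy cell markers. In WT, r without the 2 mice was -0.02 for Adcyap1 with interneuron markers. It was 0.52 for Tac1 with mossy cell markers and -0.52 for Scg2 with CA1 markers, also in WT. Of the 9, only that of Pdyn in WT passed after adjustment, and no difference between the genotypes was tested. The dentate gyrus score itself did not pass between the genotypes (difference 0.11, exact p = 0.38, adjusted p = 0.83), and its part in the level of Vgf was not tested.

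**Figure D5:**
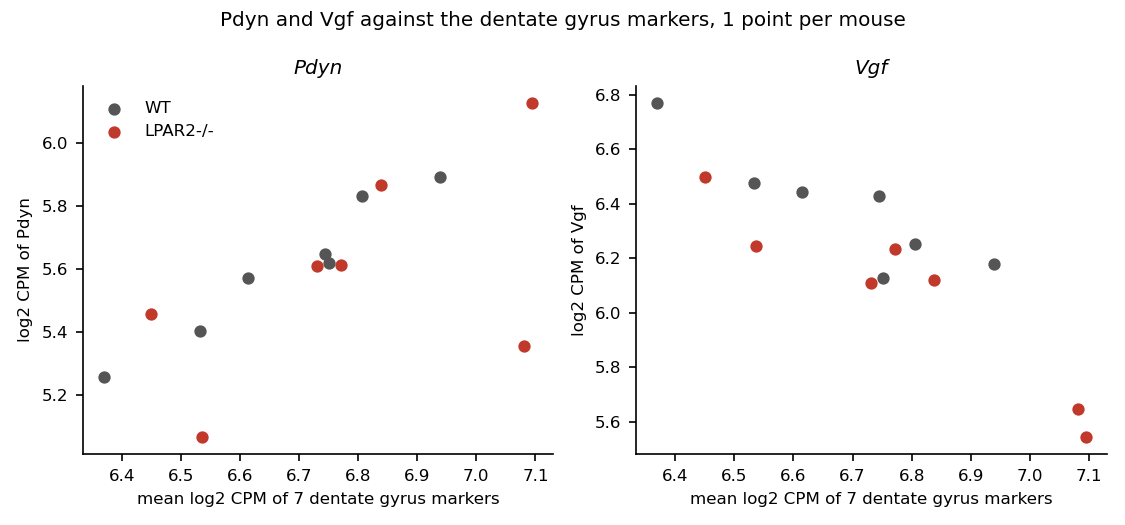
Log2 CPM of Pdyn (left) and Vgf (right) against the mean log2 CPM of 7 dentate gyrus markers, 1 point per mouse, WT in grey and mice labelled LPAR2-/- in red. Pdyn rises with the markers in WT (r = 0.97), and the 2 mice with the highest marker scores, both labelled LPAR2-/-, have the lowest Vgf.

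The 10 genes were also compared with each other within each genotype, 90 relations chosen after their values had been seen, and none passed after adjustment. The smallest exact permutation p was that of Tac1 with Adcyap1 in the mice labelled LPAR2-/- (r = 0.94, exact p = 0.0018, adjusted p = 0.16, with rho = 0.93, exact p = 0.0067, adjusted p = 0.30; r = 0.94 without 2 mice).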

How the data were processed

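Hippocampal total RNA of 14 mice was depleted of ribosomal RNA, made into TruSeq libraries and sequenced. According to the submitters' processing notes and the deposited table's own first line, adapters were removed with cutadapt 1.18, STAR aligned the reads to mm10, and the authors made the deposited counts with featureCounts 1.6.3, which summed reverse-strand reads over the exons of a gene. A deposited table of normalized values was not used here, because decimal points had been lost from its values. Genotypes came from the labels, 7 mice each. p-values measure the spread between these mice.

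Counts were scaled by TMM, filtered with filterByExpr (14897 of 24421 genes) and tested with the robust quasi-likelihood test of edgeR 4.0.16 (limma 3.58.1, R 4.3.3) with genotype as the only term. The p was adjusted over all genes tested (Benjamini-Hochberg, threshold 0.05). log2 CPM per mouse used a prior count of 2. The SE is the fold change divided by the square root of F, and intervals are 95%. Correlations over 7 mice used all 5040 pairings, and those without 2 mice used all pairings of the mice left, which are far fewer. Single values were tested over 3432 arrangements, whose smallest p is 0.00058. Alternatives were DESeq2 1.42.0 (the study used DESeq2), limma-voom, other size factors, other filters, a replicate block, each mouse left out and a prior count of 0.5. Python 3 with SciPy and Matplotlib made the remaining tables and plots. The procedure was tested on simulated data.

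The members and lists were chosen with earlier results of these data known. Named were the 10 genes, Lpar2, Fos and Arc, of each list the genes past the threshold up to 6 or otherwise the 2 of largest fold change, and the 3 genes most like each member. Crhbp, Ntrk2 and Adcyap1r1 were named outside this rule, after their values were seen, because they bind products of the 10 genes, as were single genes of the marker lists. The labels do not say that mouse numbers pair the genotypes, and the main fit did not use the numbers. No 2 libraries of a genotype were copies (in 42 pairs, chi-square divided by its degrees of freedom was at least 3.29).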

Additional observations from a re-analysis of the deposited data

How the results depend on the processing

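The counts of 0 among the 10 genes were the same under all 21 alternatives. The count of genes called in the whole table (1009, 494 higher and 515 lower) was 586, 314 and 272 when mouse number entered as a replicate block, 558 of them among the 1009, and 567 to 1385, 275 to 660 and 292 to 725 with 1 mouse left out. It was 567, 669, 596 and 654 without WT mouse 2, 4, 5 or 6 and 611 without mouse 1 labelled LPAR2-/-. Same-numbered mice correlated at -0.33 to 0.31 after removal of the genotype means, 3 of 7 above 0.1. Of the 7, 3 correlated best with their own number. Whether the number marks a shared batch was not tested. With the block the SE was 0.11 for Adcyap1 and 0.090 for Tac1, against 0.27 and 0.14 in the main fit. It was larger with the block for Npy, Penk and Tac2 and smaller for the other genes. Tac1 then had an unadjusted edgeR p of 0.017 and an adjusted p of 0.14. Under the block Arc lost its call (adjusted p = 0.067). Fold changes near 0 changed sign: Pdyn was -0.017 with limma-voom, -0.016 with the block and -0.10 to 0.080 with 1 mouse left out, Adcyap1 was 0.0079 with limma-voom and -0.17 to 0.17 with 1 mouse left out, Bdnf -0.0035 to 0.16 and Scg2 -0.066 to 0.011. Correlations with the activity score that had not passed also changed sign. With Spearman rho those of Bdnf and Tac2 in mice labelled LPAR2-/- were 0.036 and -0.14, and that of Crh in WT was 0.036. Without the 2 mice farthest from the median score, r in mice labelled LPAR2-/- was -0.51 for Adcyap1, -0.76 for Npy, 0.0085 for Pdyn, -0.099 for Penk, -0.33 for Tac1 and -0.56 for Tac2, and in WT -0.22 for Bdnf, 0.0075 for Tac1 and 0.71 for Tac2. The cause was not tested. With 1 mouse left out, Penk was -0.14 (without WT mouse 7) to -0.0046 (without mouse 3 labelled LPAR2-/-) and Tac2 0.11 (without mouse 5 labelled LPAR2-/-) to 0.32 (without WT mouse 2). Crh has no value with at least 10 counts in every library, since 3 mice labelled LPAR2-/- had 5, 8 and 9. Depth limits Crh and Tac2 the most, with 5 to 36 and 12 to 29 reads per mouse.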

Other observations

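For each of the 10 genes, the 3 genes of most similar pattern were found by Pearson r over the 14 mice after removal of the genotype means, among 14082 genes of mean CPM of at least 1. These are the highest of many values and serve as a description only. Vgf had the closest companions, Lypla2, Guk1 and Arhgdig, with r of 0.96, 0.96 and 0.95. Bdnf moved most closely with Blmh (0.93), Kcnj2 (0.91), an inward rectifier potassium channel gene, and Hras (0.91). Scg2 was followed by Atp6v1d (0.92), a subunit gene of the proton pump that acidifies vesicles, Nkain2 (0.90) and Phyhipl (0.90). Pdyn was followed by Zswim8 (0.91), Spop (0.91) and Col20a1 (0.89). Adcyap1 was followed by Lppr3 (0.90), Trhr (0.87), the receptor gene for thyrotropin-releasing hormone, and Stk32b (0.87). Tac1 was followed by Lhfpl3 (0.89), Cntn6 (0.87) and Zmat3 (0.86). Penk was followed by Bri3 (0.89), Men1 (0.86) and Faap100 (0.83), and Npy by Rilp, Smtnl2 and Epha5 (each 0.81). Of the pair with the fewest reads, Crh was followed by Cyp39a1 (0.88), Nmt2 (0.86) and Gclm (0.85), and Tac2 by Zfp593 (0.89), Trmt2b (0.85) and Mir17hg (0.80). None of these companions was one of the 10 genes.

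Among the marker lists, 2 single genes passed the test between genotypes. Rasd2, from the striatum list, fell by 0.42 on the log2 scale in the mice labelled LPAR2-/- (edgeR adjusted p = 0.0082), against the balance of its list, in which 7 of 10 tested genes lay above WT and 3 below, with a median of 0.13. Of these 10, 7 had an unadjusted edgeR p under 0.05, against 22.4% of all genes. The summed level ran the other way. The 12 striatum markers summed to 211 to 245 CPM in the mice labelled LPAR2-/- and to 229 to 284 CPM in WT. Tdo2, from the dentate gyrus list, was higher by 0.45 (edgeR adjusted p = 0.024). In the 20 sets of 7 values given by the 10 genes in each genotype, no mouse stood apart by Dixon's criterion at the 95% level.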
